A study of Mus musculus with 7 samples.

Results

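The receptors described here respond to lipid mediators, to proteases or to kinins, and 26 of the 382 CpG probes on the array belong to them. They were chosen by gene symbol alone, from a fixed list of symbols and symbol beginnings. The list covers lysophospholipid, cannabinoid, prostanoid, leukotriene, platelet-activating factor (PAF), protease-activated and bradykinin receptors. It does not catch every such probe, since Lpar1 is left out. DNA methylation was measured on a custom Illumina GoldenGate array, which reads bisulphite-converted DNA with one oligonucleotide for the methylated and one for the unmethylated state of each CpG. All 7 arrays hold DNA of C57BL/6 mice, which the study calls control samples, with no treatment, genotype, age or sex given. A2B5_mas and PSA-NCAM_mas carry the tissue label brain. Met_0, Met_25, Met_50, Met_75 and Met_100 carry the tissue label DNA, although the extraction protocol names brain for all 7, and the labels leave their numbers unexplained; they are read here as nominal percent methylation. A2B5 is a surface epitope of glial progenitors and PSA-NCAM the polysialylated adhesion molecule of migrating neuroblasts, but the labels do not say how the cells were obtained, how many animals were pooled or what the ending of the titles means. Each title is 1 array with no replicate, so no difference between 2 arrays has a test, and the trend over the 5 Met arrays is the only comparison with a p-value.

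Values are beta values, the methylated fraction of the signal at 1 CpG, from 0 to 1. How precise a value is depends on the number of arrays. As a yardstick of array error, the distance of each Met_50 value from the midpoint of Met_25 and Met_75 gave an SD of 0.0231 for 1 array and 0.0326 for a difference of 2 arrays over the 331 probes that responded to the Met series. Curvature of a probe's response and errors of mixing are included in this SD. Few markers were available to check the titles. Of 9 glial progenitor markers 3 had a probe: Olig2 had 0.0750 in A2B5_mas and 0.0735 in PSA-NCAM_mas, Mbp 0.0549 and 0.0647, and Gfap 0.640 and 0.549. The only neuroblast marker with a probe, Ncam1, had 0.0741 and 0.0791. The single probe of the blood and microglia list, Ifng, had 0.609 and 0.601, and that of the endothelial list, Ednrb, 0.120 and 0.108. Methylation at 1 CpG of such genes neither shows nor refutes the cell type named in a title.

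All 26 genes encode G protein-coupled receptors. Lysophospholipids, endocannabinoids and eicosanoids are made from membrane lipids on demand and act on nearby cells, and their receptors guide migration, inflammation, vessel tone and, in brain, synaptic transmission and myelination. Protease-activated receptors carry their own ligand, which a protease such as thrombin or trypsin unmasks by cutting the receptor's N-terminal end, and kinin receptors answer peptides cut from kininogen. Many of these receptors are best known from platelets, leukocytes, smooth muscle and endothelium, while CB1 and several lysophospholipid receptors are well known in neural cells. Methylation of a CpG-rich promoter usually goes with a silent gene, whereas CpG-poor promoters and gene bodies follow no such simple rule.

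The deposited table does not state which CpG a probe reads or where it lies relative to the gene, so the promoters printed here give the gene's context and not the measured site. They show how widely CpG content varies among these genes and were picked as contrasts: CpG-rich promoters of a prostaglandin, a sphingosine 1-phosphate and a thrombin receptor, and CpG-poor promoters of another protease-activated and another prostaglandin receptor. The sequences are the 250 bases before the RefSeq start site on the gene's own strand (mouse build GRCm38.p6), 5′ to 3′, with every CG dinucleotide in capitals. Ptger3 lies on the plus strand with its window at chr3:157566626-157566875, Edg8 (now S1pr5) on the minus strand at chr9:21248444-21248693, F2r on the minus strand at chr13:95618467-95618716, F2rl2 on the plus strand at chr13:95696670-95696919, and Ptgdr on the minus strand at chr14:44859376-44859625.
Ptger3: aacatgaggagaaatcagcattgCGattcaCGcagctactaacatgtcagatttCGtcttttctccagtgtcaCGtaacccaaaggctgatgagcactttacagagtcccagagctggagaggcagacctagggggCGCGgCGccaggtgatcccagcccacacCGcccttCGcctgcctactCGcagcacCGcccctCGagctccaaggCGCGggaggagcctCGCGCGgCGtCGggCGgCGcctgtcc
Edg8: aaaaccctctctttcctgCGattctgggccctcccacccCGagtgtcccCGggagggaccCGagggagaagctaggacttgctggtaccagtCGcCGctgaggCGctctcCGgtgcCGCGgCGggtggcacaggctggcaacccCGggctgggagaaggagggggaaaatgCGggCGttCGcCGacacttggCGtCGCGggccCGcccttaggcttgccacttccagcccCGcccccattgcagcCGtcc
F2r: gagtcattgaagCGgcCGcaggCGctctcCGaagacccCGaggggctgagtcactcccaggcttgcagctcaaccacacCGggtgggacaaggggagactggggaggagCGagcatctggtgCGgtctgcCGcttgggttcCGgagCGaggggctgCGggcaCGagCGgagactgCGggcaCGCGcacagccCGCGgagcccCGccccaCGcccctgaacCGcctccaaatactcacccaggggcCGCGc
F2rl2: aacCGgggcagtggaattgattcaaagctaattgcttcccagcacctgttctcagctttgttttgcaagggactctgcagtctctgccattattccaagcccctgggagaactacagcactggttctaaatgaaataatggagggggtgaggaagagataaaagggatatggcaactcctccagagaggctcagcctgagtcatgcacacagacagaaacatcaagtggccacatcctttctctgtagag
Ptgdr: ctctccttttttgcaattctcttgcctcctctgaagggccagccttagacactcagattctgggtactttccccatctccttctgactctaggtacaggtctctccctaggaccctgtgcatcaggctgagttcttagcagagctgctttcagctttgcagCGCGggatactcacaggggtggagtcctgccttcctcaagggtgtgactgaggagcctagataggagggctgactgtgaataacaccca
Ptger3, Edg8 and F2r hold 21, 22 and 24 CG dinucleotides in these windows, and F2rl2 and Ptgdr 1 and 2. On the brain arrays the beta value of Ptger3 was low while that of the similarly CpG-rich Edg8 was not. F2rl2 was intermediate, and the low value of Ptgdr cannot be read as an unmethylated site, because that probe fell along the Met series.

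The receptor families differed in the beta values of their probes in brain. Taking the mean of both brain arrays for each probe, the median was 0.0708 for the 6 prostanoid receptor probes, 0.144 for the 7 lysophospholipid receptor probes, 0.227 for the 2 cannabinoid receptor probes, 0.372 for the 4 protease-activated receptor probes, 0.497 for the 5 leukotriene and PAF receptor probes and 0.517 for the 2 kinin receptor probes. The median over all 26 was 0.263, against 0.0974 over all 382 probes. Of the 26 members, 11 (42.3%) were low, under 0.2, in both brain arrays, against 66% of all probes, and 12 (46.2%) were intermediate, from 0.2 to 0.8, in both, against 25.7%. Bdkrb1 and Ltb4r2 were high, over 0.8, in A2B5_mas, which makes 2 members (7.69%) against 4.71% of all probes, and 0 members were high in PSA-NCAM_mas, against 2.88%. Probes are not replicates of a family, so no test was run between families. Probes also differ in how they read the same Met array, so a gap in beta value between 2 probes is not by itself a gap in methylation.

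**Figure D1:**
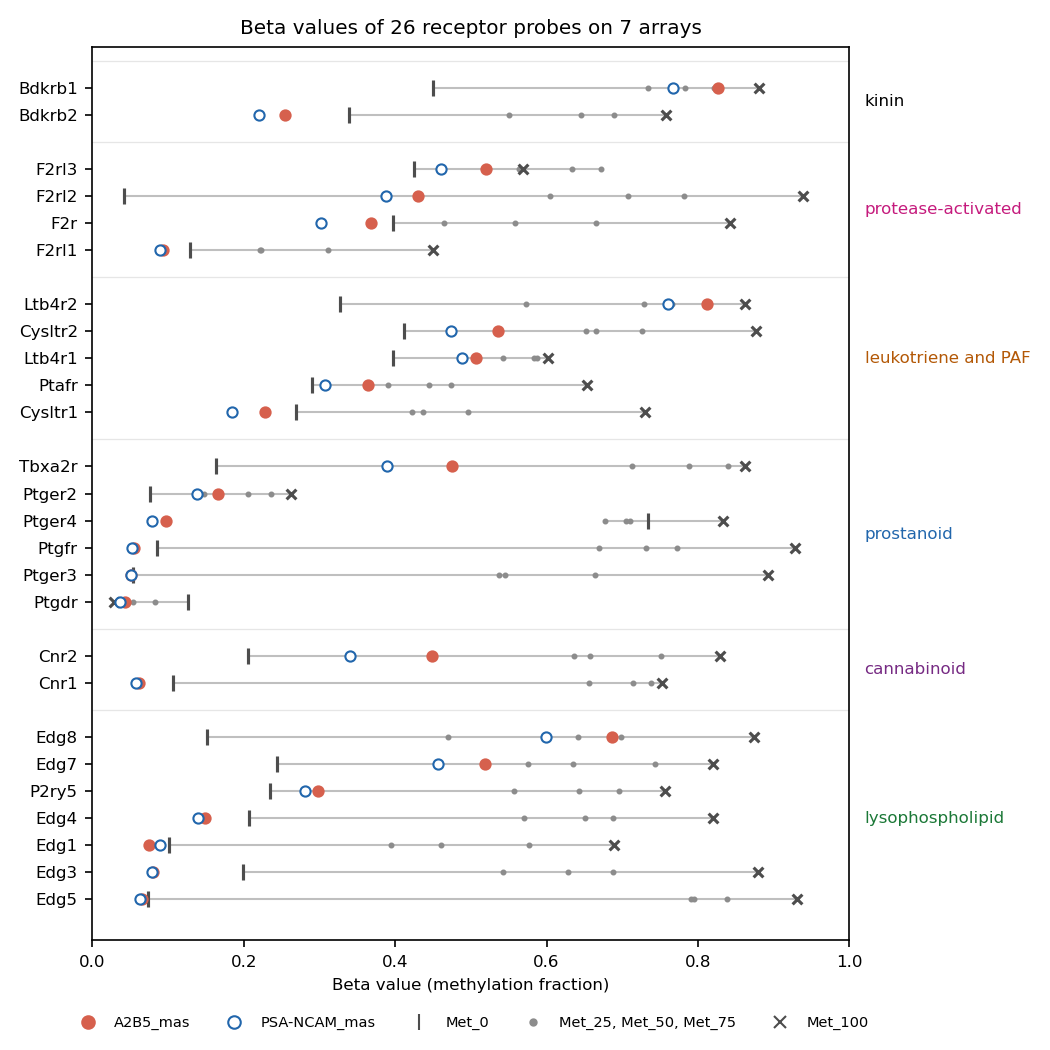
Beta values (x axis, methylation fraction from 0 to 1) of the 26 receptor probes (y axis, grouped by family) on each of the 7 arrays. Filled circles are A2B5_mas, open circles PSA-NCAM_mas, vertical ticks Met_0, dots the middle Met arrays and crosses Met_100, and the grey line spans the Met arrays. Prostaglandin receptor probes sit at the left in brain, and Bdkrb1 and Ltb4r2 lie furthest to the right.

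Among the prostanoid receptors, the probes of all 5 prostaglandin receptors had beta values under 0.2 in both brain arrays, as did 66% of all probes. Of these 5, only the probes of Ptger3 and Ptgfr rose by at least 0.3 in the Met series. Ptgdr, the prostaglandin D receptor linked to sleep, was the lowest of the 26 members, with 0.0436 in A2B5_mas and 0.0369 in PSA-NCAM_mas, on a probe that read 0.126 in Met_0 and 0.0282 in Met_100. Ptger3, a prostaglandin E receptor that lowers cAMP and acts in fever, had 0.0508 and 0.0514. Ptgfr, the prostaglandin F receptor, had 0.0548 and 0.0519. Both sat next to their Met_0 values, 0.0539 for Ptger3 and 0.0855 for Ptgfr, and far from 0.892 and 0.928 in Met_100. Ptger2 and Ptger4, the prostaglandin E receptors that raise cAMP, had 0.165 and 0.139, and 0.0976 and 0.0790. The Ptger2 probe read only 0.263 in Met_100, so it stayed low or nearly so at every Met level, and the Ptger4 probe already read 0.735 in Met_0. The exception in this family was Tbxa2r, the thromboxane receptor of platelets and smooth muscle, with 0.476 in A2B5_mas and 0.389 in PSA-NCAM_mas.

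Lysophospholipid receptors split within the family. Of the sphingosine 1-phosphate receptors, 3 were low in both brain arrays, as were 66% of all probes, and 1 was not. Edg1 (now S1pr1, needed for vessel maturation and lymphocyte exit from lymphoid organs) had 0.0744 in A2B5_mas and 0.0887 in PSA-NCAM_mas. Edg3 (S1pr3) had 0.0802 and 0.0789, and Edg5 (S1pr2, required for hearing in mice) 0.0661 and 0.0629. Edg8 (S1pr5, the sphingosine 1-phosphate receptor of oligodendrocytes and natural killer cells) had 0.686 and 0.600, which was 0.534 and 0.448 above its Met_0 value of 0.152. Among the lysophosphatidate receptors, Edg4 (Lpar2) had 0.149 and 0.139, P2ry5 (Lpar6, linked to hair growth in humans) 0.298 and 0.280, and Edg7 (Lpar3, an embryo implantation gene) 0.519 and 0.457. Lpar1, which escapes the rule because its probe carries the current symbol, is the lysophosphatidate receptor of the cortical germinal zone and of myelinating cells. It had 0.0509 and 0.0521 and was looked up after the probe names were seen.

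The cannabinoid receptors lay far apart. Cnr1, the CB1 receptor of presynaptic terminals, had 0.0615 in A2B5_mas and 0.0578 in PSA-NCAM_mas, both under its Met_0 value of 0.106. Cnr2, the CB2 receptor of immune cells and microglia, had 0.449 and 0.340, both above its Met_0 value of 0.206. The Met series spanned a like range for both, up to 0.753 for Cnr1 and 0.829 for Cnr2 in Met_100. Both symbols are also older names of other mouse genes, so these names are less certain than the rest.

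None of the 5 leukotriene and PAF receptor probes was low in beta value in both brain arrays, against 66% of all probes. Ltb4r2, the low-affinity leukotriene B4 receptor, had 0.812 in A2B5_mas and 0.760 in PSA-NCAM_mas, near its Met_100 value of 0.862. Ltb4r1, the high-affinity leukotriene B4 receptor of neutrophils, had 0.507 and 0.488. The cysteinyl leukotriene receptor Cysltr2 had 0.536 and 0.474. The other one, Cysltr1, an X-linked gene that mediates airway narrowing, had 0.228 and 0.185, the latter under 0.2. Ptafr, the PAF receptor, had 0.364 and 0.307, against 0.290 in Met_0. Apart from Cysltr1, every probe of this family was above its own Met_0 value in both brain arrays, as were 37.7% of all probes. For Ptafr the excess in PSA-NCAM_mas was only 0.0169, less than the SD of 0.0326 for a difference of 2 arrays.

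Protease-activated receptors were mostly intermediate. F2r (PAR1, the main thrombin receptor) had 0.368 in A2B5_mas and 0.301 in PSA-NCAM_mas, both under its Met_0 value of 0.397. F2rl1 (PAR2, opened by trypsin and tryptase) was the low one, with 0.0938 and 0.0895. F2rl2 (PAR3, a thrombin cofactor on mouse platelets) had 0.430 and 0.388, well above the 0.0418 of Met_0. F2rl3 (PAR4, the thrombin receptor that signals in mouse platelets) had 0.520 and 0.461, on a probe whose Met values ran only from 0.425 to 0.671. The kinin receptors again differed: Bdkrb1, the receptor induced by inflammation, was the highest member with 0.826 and 0.767, whereas Bdkrb2, the receptor present in resting tissue, had 0.255 and 0.221, under its Met_0 value of 0.339.

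Several members are neighbours on the genome (RefSeq gene order, GRCm38.p6), and some of these had unlike beta values in brain. Bdkrb1 and Bdkrb2 lie next to each other on chromosome 12, and the means of their brain values were 0.797 and 0.238, a gap of 0.559. Ltb4r1 and Ltb4r2, adjacent on chromosome 14, had 0.497 and 0.786. F2r and F2rl1 are adjacent on chromosome 13, with 0.335 and 0.0916, and F2rl2, separated from F2r by 1 protein-coding gene, had 0.409. In Met_0 the probes read 0.450 for Bdkrb1 and 0.339 for Bdkrb2, and 0.398 for Ltb4r1 and 0.327 for Ltb4r2. F2r, F2rl1 and F2rl2 read 0.397, 0.129 and 0.0418 there. A gap between F2r and F2rl1 was thus also present in Met_0. Ptgdr and Ptger2, adjacent on chromosome 14, were both low, at 0.0403 and 0.152. Over the whole order of the 26 members from Bdkrb1 down to Ptgdr, 8 of the 25 gaps between neighbouring levels exceeded 0.0326, so most neighbours in that order were not separated beyond the array yardstick. Bdkrb1 and Ltb4r2 stood apart from Edg8, and Edg8 from Cysltr2, by gaps of 0.143 and 0.138.

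The Met series tested whether each probe follows the number in the title. The slope of each probe on that number was ranked among those from all 120 possible orders of the arrays (exact two-sided permutation test), with Benjamini-Hochberg adjustment over all 382 probes. The smallest p this allows is 0.0167, which became 0.0206 after adjustment. Of the 26 members, 22 rose (84.6%) at an adjusted p of at most 0.05, against 87.7% of all probes, and 1 fell, against 1.57%. A rise is thus about as frequent among these receptors as on the array as a whole. By size, 21 members (80.8%) were at least 0.3 higher in Met_100 than in Met_0, against 86.6% of all probes. Higher values at every one of the 4 steps were seen in 19 members (73.1%), against 79.6% of all probes. The labels do not say whether the Met DNAs came from a common stock, which the test takes to be separate samples.

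F2rl2 had the widest span of the members, from 0.0418 in Met_0 over 0.605, 0.708 and 0.781 to 0.939 in Met_100. Edg5 went from 0.0731 to 0.791 in the first step and then only to 0.794, 0.839 and 0.930. Most members shared this steep first step, and the member medians were 0.206, 0.563, 0.643, 0.692 and 0.824 from Met_0 to Met_100. F2r was more even, with 0.397, 0.465, 0.559, 0.666 and 0.842. Cysltr1, F2rl1 and Ltb4r1 rose despite 1 step downwards each, with an adjusted exact permutation p of 0.0373. F2rl1 reached only 0.450 in Met_100, and Ptger2 only 0.263, rising at every step from 0.0763.

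The single member that fell was Ptgdr, with 0.126, 0.0822, 0.0542, 0.0371 and 0.0282 from Met_0 to Met_100, at an exact permutation p of 0.0167, adjusted 0.0206. A low value on this probe was thus also what the highest Met array gave. No trend was called for 3 members. Cnr1 had 0.106, 0.656, 0.738, 0.715 and 0.753, with an exact permutation p of 0.05, adjusted 0.0544. Ptger4 began high, with 0.735 in Met_0, 0.677 in Met_25 and 0.833 in Met_100 (adjusted exact permutation p = 0.280), and F2rl3 peaked at 0.671 in Met_25 and ended at 0.569 (adjusted 0.694, same test). With Ptgdr, Ptger2 and Ltb4r1, Ptger4 and F2rl3 make up the 5 members whose rise stayed under 0.3.

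Like 87.7% of all probes, the receptors at least 0.2 above Met_0 in both brain arrays all rose in the Met series. Each had an adjusted p of 0.0206 in the exact permutation test, the smallest it allows. Besides F2rl2 these receptors were Edg8, Bdkrb1, Ltb4r2, Tbxa2r and Edg7. Edg8 had 0.152, 0.470, 0.642, 0.699 and 0.874 from Met_0 to Met_100, and its brain values lay around that of Met_50. Bdkrb1 had 0.450, 0.733, 0.783, 0.821 and 0.880, and its A2B5_mas value of 0.826 passed that of Met_75. Ltb4r2 had 0.327, 0.572, 0.728, 0.766 and 0.862, with both brain values above Met_50. By contrast, the brain values of Tbxa2r, whose series ran 0.163, 0.713, 0.788, 0.840 and 0.862, stayed between Met_0 and Met_25. So did those of Edg7, with 0.244, 0.575, 0.634, 0.743 and 0.819. Cnr2, with 0.206, 0.637, 0.657, 0.751 and 0.829, was above Met_0 by at least 0.2 only in A2B5_mas, and also stayed under Met_25 in brain.

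The families differed less in the Met arrays than in brain. In Met_0 the family medians were 0.106 for prostanoid, 0.156 for cannabinoid and 0.199 for lysophospholipid receptors. They were 0.263 for protease-activated, 0.327 for leukotriene and PAF and 0.394 for kinin receptors. This is the order found in brain, except that the cannabinoid and lysophospholipid families changed places. In Met_25 they lay between 0.535 (protease-activated) and 0.646 (cannabinoid), and in Met_100 between 0.706 (protease-activated) and 0.848 (prostanoid). The prostanoid family thus had the lowest median of the 6 in Met_0 and in both brain arrays, 0.0762 in A2B5_mas and 0.0654 in PSA-NCAM_mas, and the highest in Met_100. The kinin family had the highest in Met_0 and in both brain arrays, 0.541 and 0.494. These medians rest on 2 to 7 probes each and were not tested.

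**Figure D2:**
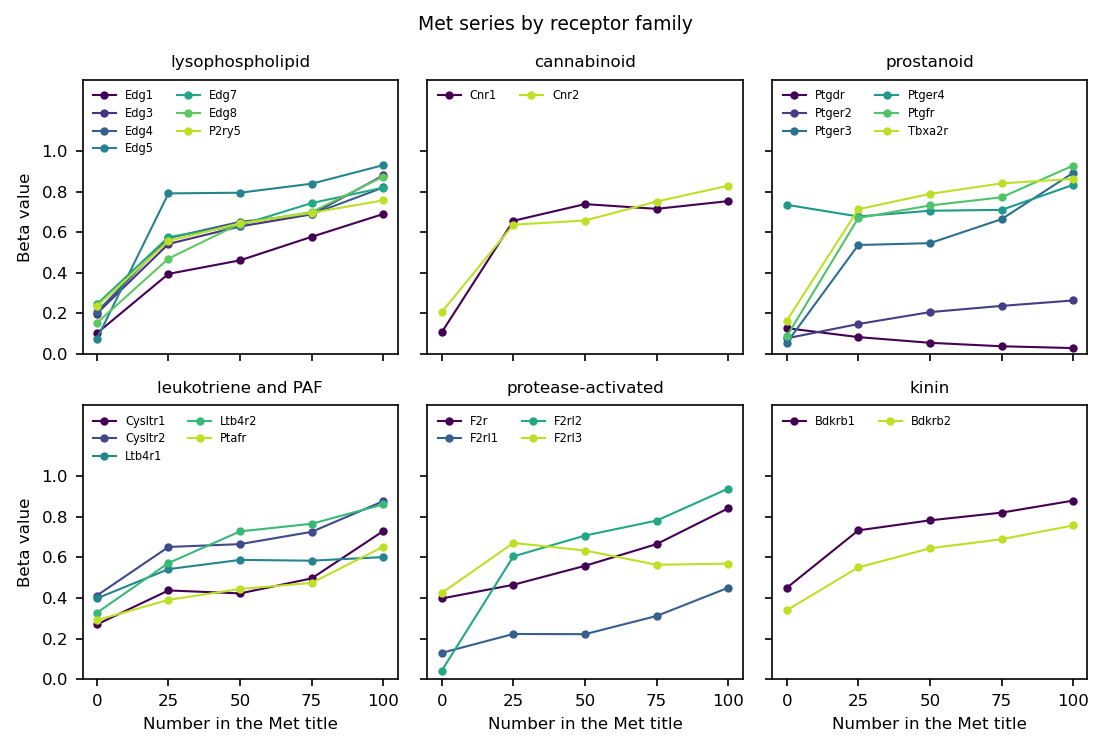
Beta value (y axis) against the number in the Met title (x axis) for each of the 26 probes, 1 panel per receptor family, 1 point per array. Most lines climb steeply between 0 and 25, from a member median of 0.206 to 0.563, while Ptgdr falls to 0.0282, Ptger4 starts at 0.735 and F2rl3 ends below its value in Met_25.

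Because of this bend, a beta value near the middle often corresponds to a low number on the Met scale. Read off its own Met curve, made monotone and with values under Met_0 set to 0, Edg8 stood at 69.3 in A2B5_mas and 43.9 in PSA-NCAM_mas, Bdkrb1 at 77.3 and 42.1, and Ltb4r2 at 87.1 and 71.0. Tbxa2r, with beta values near the middle, stood only at 14.2 and 10.3, Cnr2 at 14.1 and 7.77, and F2rl2 at 17.2 and 15.4. Of the 26 members, 13 (50%) read 0 in both arrays, against 57.6% of all probes. By this scale 21 members (80.8%) were low in both, in place of 11, and so were 83% of all probes, so the smaller share of low members seen in beta values was not present on it. All 4 protease-activated receptor probes were low in both arrays, but no trend was called for F2rl3. The leukotriene and PAF receptor probes other than Ltb4r2 were low in both as well. The counts of probes at 0 and of low probes include some without a usable rising curve. Ptgdr fell along the Met series, Ptger4 already read 0.735 in Met_0, and both stood at 0. Intermediate in both were 3 members (11.5%), Edg8, Bdkrb1 and Ptger2, against 7.59% of all probes. Ptger2 stood at 33.0 and 22.1, but its probe ran only from 0.0763 in Met_0 to 0.263 in Met_100. On so short a curve the array SD of 0.0231 weighs heavily, so this reading is uncertain.

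Against Met_0, 13 members (50%) were higher in both brain arrays, against 37.7% of all probes, and the other 13 were lower in both, against 58.1%. The comparisons of A2B5_mas and of PSA-NCAM_mas with Met_0 share that array. Members at least 0.2 above Met_0 in both numbered 6 (23.1%), against 14.9% of all probes: Edg8, Ltb4r2, F2rl2, Bdkrb1, Tbxa2r and Edg7. Ptger4 alone was at least 0.2 below, against 6.81% of all probes, since its brain values of 0.0976 and 0.0790 stood against 0.735 in Met_0.

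The brain arrays were then set against each other, the contrast of a glial and a neuronal progenitor title. The 15 members with a brain mean from 0.2 to 0.8 were all higher in A2B5_mas, as were 80 of the 98 other probes of that range. Cnr2 had the largest difference, 0.109, followed by Tbxa2r with 0.0868 and Edg8 with 0.0862. F2r differed by 0.0668, Cysltr2 by 0.0624, Edg7 by 0.0615, F2rl3 by 0.0596, Bdkrb1 by 0.0591, Ptafr by 0.0570 and Ltb4r2 by 0.0523. These 10 of the 26 members (38.5%) were higher in A2B5_mas by at least 0.05, against 12% of all probes, and 0 were lower by that size, against 0.785%. At any size 24 members were higher, against 65.2% of all probes, and the 2 lower ones were Edg1, with a difference of -0.0143, and Ptger3. The median difference was 0.0306 over the members and 0.00429 over all probes. No test was possible with single arrays, and the values describe this pair only.

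Much of this excess went with level. Of the 9 members with a brain mean from 0.4 to 0.8, 7 were higher by at least 0.05, and so were 31 of 53 other probes of that range, with median differences of 0.0596 and 0.0571. From 0.2 to 0.4 it was 3 of 6 members (Cnr2, Ptafr and F2r) and 3 of 45 other probes, with medians of 0.0503 and 0.0187. Under 0.1 the 9 members had a median difference of 0.00327. Bringing both arrays to the same distribution by quantile normalization left 1 member, Cnr2 with 0.0675, higher by at least 0.05, against 2.09% of all probes. Under that scaling 20 members were higher by any amount, against 52.1% of all probes, and after subtracting the median difference of all probes 19 were, against 50%. A difference in scale between the 2 arrays and a difference in methylation cannot be told apart here.

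**Figure D3:**
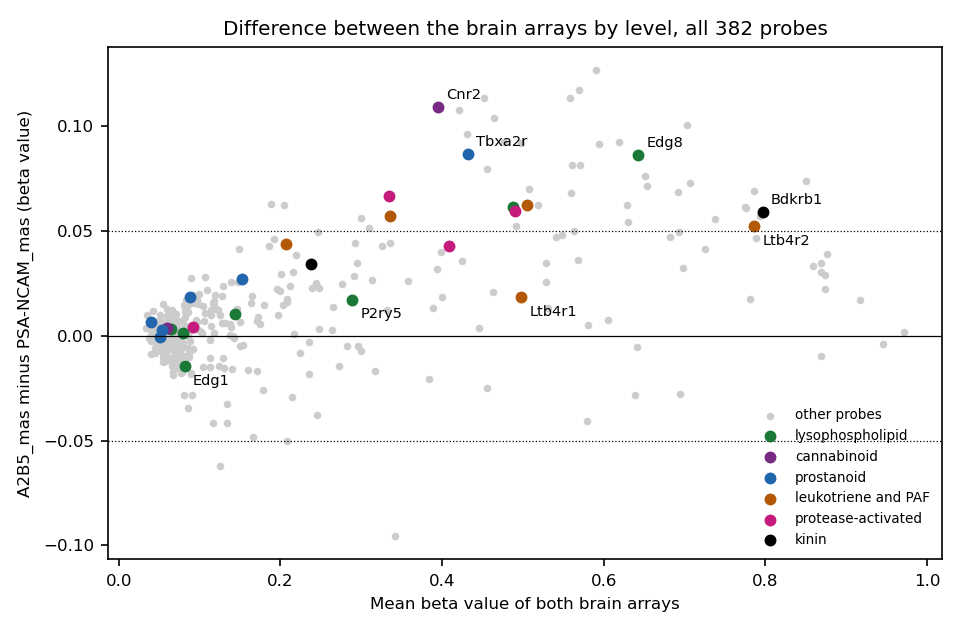
Difference in beta value between A2B5_mas and PSA-NCAM_mas (y axis) against the mean of both (x axis) for all 382 probes, with the 26 receptor probes coloured by family and the others in grey. Dotted lines mark differences of 0.05 in either direction. The 15 receptor probes with a mean from 0.2 to 0.8 lie above 0, from 0.0172 for P2ry5 to 0.109 for Cnr2, as do 80 of the 98 grey probes of that range.

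Promoter windows of 300 bases, 250 before and 50 after the RefSeq start site, were matched for 21 of the 26 members. CG, the only motif searched and the same on both strands, was counted in each window and averaged over the start sites of a gene. At least 10 CGs are found in 43.5% of the 32851 promoter windows of the table. The median count was 10 over the 21 members and 16 over the 284 of all 382 probes with a promoter. Of the 11 members with at least 10, 7 (63.6%) were low in both brain arrays, near the 66% of all 382 probes. The median brain mean of these 11 was 0.0883. Of the 10 members with fewer, 2 (20%) were low, Ptgdr and Ptger2, and the median was 0.402. The other 4 with at least 10 were Edg8, F2r, Edg7 and Bdkrb2, with 27, 28, 25 and 10 CGs and means of 0.643, 0.335, 0.488 and 0.238. Across the 21 members Pearson's r was -0.22 and Spearman's rho -0.29, a weak relation given as a description, since all points share the same arrays and the measured CpG may lie outside the window. The relation and the split by CG count are not given for the whole array, where too few probes, 284 of 382, had a promoter.

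**Figure D4:**
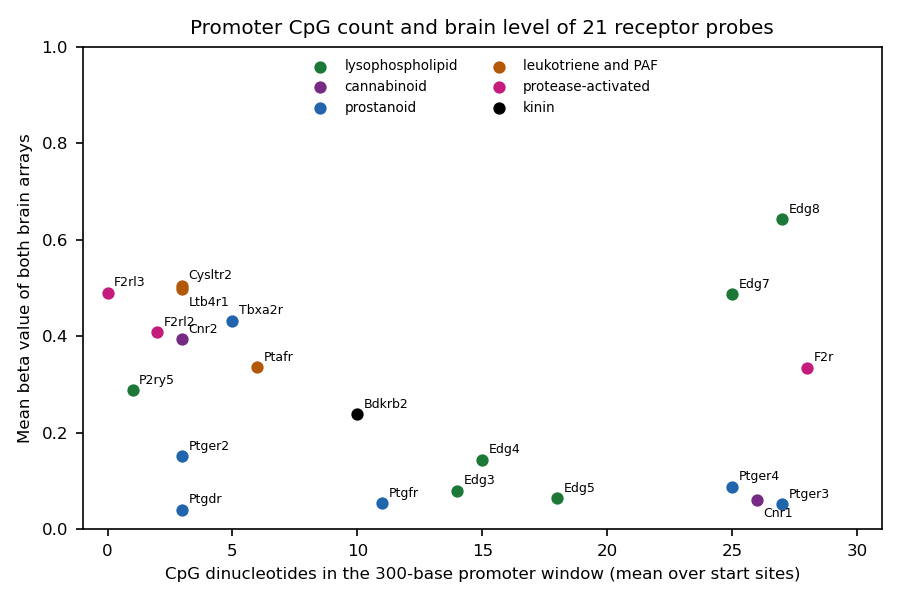
Mean beta value of both brain arrays (y axis) against the number of CG dinucleotides in the 300-base promoter window, averaged over start sites (x axis), for the 21 members with a promoter sequence, coloured by family. CpG-rich members divide into a low set, such as Ptger3 at 0.0511, and Edg8, Edg7, F2r and Bdkrb2 at 0.643, 0.488, 0.335 and 0.238.

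Set against other receptor classes on the array, the 26 members had a median brain mean of 0.263, close to the 0.264 of 15 purine receptor probes. The 49 neuropeptide receptor probes had 0.0902 and the 15 hormone receptor probes 0.159. Low in both brain arrays were 42.3% of the members, 46.7% of the purine, 73.5% of the neuropeptide and 53.3% of the hormone receptor probes. In the same order the Met_0 medians were 0.206, 0.187, 0.126 and 0.131. These are descriptions of the same arrays and were not tested.

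Of 46 listed genes that make, cut or degrade the ligands of these receptors, 3 had a probe. All 3 rose in the Met series at the smallest p (exact permutation test, adjusted p = 0.0206), as 87.7% of all probes rose. F2, the thrombin precursor, had 0.660 in A2B5_mas and 0.597 in PSA-NCAM_mas. Plg, the plasmin precursor, had 0.705 and 0.658, both above its Met_100 value of 0.654. Mme (neprilysin, which degrades bradykinin) had 0.142 and 0.190 and was thus lower in A2B5_mas, unlike the kinin receptors. The protease probes Prss2 (a trypsin) and Ctsg (cathepsin G), added after the probe names were seen, had 0.717 and 0.668, and 0.657 and 0.603. In Met_0 the probes of F2, Plg and Prss2 already read 0.406, 0.324 and 0.418, that of Ctsg 0.0860 and that of Mme 0.201. The protease-activated receptors ranged from F2rl1 at 0.0916 to F2rl3 at 0.491 in the mean of both brain arrays.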

How the data were processed

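DNA methylation was measured on 7 custom GoldenGate arrays, 1 per title. The table deposited by the authors holds 382 probes, read as beta values (methylated fraction of the signal), made per the labels from bisulphite-converted DNA labelled by the manufacturer's procedure. All lay between 0.0282 and 0.972 with 0 missing. The sources used here do not name the software, background correction, normalization, filters or build, and a scaling between arrays would change the differences between them. Members and lists were chosen with earlier results of these data known, and every member is named. Of the 26 symbols, 19 were current and 7 older names in RefSeq (GRCm38.p6), which also supplied the promoters.

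Slopes on the Met number were tested by exact permutation of 120 orders with Benjamini-Hochberg adjustment over 382 probes. The computation was tested on simulated straight-line rises with less noise than the array SD of 0.0231. This checks the code and not how often the test would find a rise in these data. Levels were classed with limits of 0.2 and 0.8, and size rules were 0.3 for the Met rise, 0.2 against Met_0 and 0.05 between the brain arrays. Alternatives covered sizes, limits, scales and normalization. Computations used Python 3.11.15, numpy 2.4.6, pandas 2.3.3, scipy 1.17.1, scikit-learn 1.9.0 and matplotlib 3.10.9.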

Additional observations from a re-analysis of the deposited data

How the results depend on the processing

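Of 43 alternative values for 16 results, 31 stayed within the yardstick of their main value, 12 moved and 0 reversed. The yardstick was a factor of 1.5 for counts, 0.0326 for the median difference, 0.0231 for family medians and 0.1 for the promoter correlation. That for the median difference exceeds its main value of 0.0306, so it could not flag a complete loss. Quantile normalization lowered this difference to 0.00450, which still counts among the 31. Some alternatives could not move, such as the mean in place of the median in a family of 2 probes. The 31 is thus no measure of robustness. On the scale of the Met curves the members low in both brain arrays went from 11 to 21 and the intermediate ones from 12 to 3. Among those that moved, Tbxa2r lay on a steep first step, whereas F2r and Bdkrb2 lay under Met_0 and so read 0. Members higher in A2B5_mas went from 10 to 1 at a size of 0.1, 0 at 0.2 and 1 after quantile normalization. Members below Met_0 in both brain arrays went from 1 to 2 at a size of 0.1. Family medians were sensitive to their few probes. Taken as means they were 0.256 for lysophospholipid, 0.136 for prostanoid, 0.466 for leukotriene and PAF, and 0.331 for protease-activated receptors. With responsive probes only they were 0.420 for leukotriene and PAF and 0.335 for protease-activated receptors. Leaving out Met_0 gave 14 responsive members in place of 21, and leaving out Met_100, added after seeing the data, gave 19. With 1 Met array left out the permutation test cannot go below 0.0833, so no trend could then be called. No paired analysis was possible because each title has 1 array, and for the same reason the brain comparison has no version with a sample left out.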
